A study of Mus musculus with 20 samples.

Results

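The circadian clock genes are 10 rows of an expression table of 23402 rows, taken by symbol: Arntl, Clock, Per1, Per2, Per3, Cry1, Cry2, Nr1d1, Nr1d2 and Dbp. All 10 were present. RNA came from subcutaneous tumours grown in mice from MC38, a mouse colon adenocarcinoma cell line. The vehicle-treated tumours (Control) gave 10 libraries, and those treated with ATBx around the tumour, peri-tumoral ATBx (P.T.ATBx), gave another 10. Both groups share the cell line, the tissue and the library kit. ATBx usually stands for antibiotics, but no agent, dose, schedule, mouse strain, age or time of day is named in the labels. Nothing in the labels ties a library to a separate animal, so the p-values reflect only the spread among these libraries, part of which may be technical.

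The mammalian clock is a transcriptional loop. The proteins of Arntl (BMAL1) and Clock pair and bind E-boxes, short DNA sites near the Per, Cry, Nr1d1, Nr1d2 and Dbp genes, and raise their transcription. PER and CRY proteins accumulate and block the BMAL1 and CLOCK pair, REV-ERB proteins (from Nr1d1 and Nr1d2) repress Arntl, and DBP activates genes with D-boxes, among them Per genes. In tissues with a running clock, Arntl RNA therefore peaks at the opposite time of day from Dbp and Nr1d1 RNA, and Per1 also responds within hours to glucocorticoid hormone and to cAMP and growth factor signals.

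Promoter sequence was examined in the 250 bases before the RefSeq transcript starts (assembly GRCm38.p6), for which 9 of the 10 members had 13 windows; Per2 had none. Both strands were searched for the E-box CACGTG, the related E-prime box CACGTT, the cAMP response element TGACGTCA, the D-box TTATGTAA or TTACGTAA, and TAGGTCA, the REV-ERB and ROR core site with its leading T. Per1, Per3, Cry1, Dbp and Arntl are shown because the results below turn on them or because they carry a match, with matches in capitals and positions counted back from the start. The first of 2 Per1 windows, on the plus strand at chr11:69098699-69098948, holds an E-box whose first base is at position -166. The second Per1 window, not shown, held none of these letters. The Per3 window, on the minus strand at chr4:151044666-151044915, holds D-boxes at -205 and -158. The Cry1 window, on the minus strand at chr10:85185055-85185304, holds an E-prime box at -79 and an E-box at -60. The Dbp window, on the plus strand at chr7:45704997-45705246, and the first Arntl window, on the plus strand at chr7:113207215-113207464, held none of these letters.
Per1: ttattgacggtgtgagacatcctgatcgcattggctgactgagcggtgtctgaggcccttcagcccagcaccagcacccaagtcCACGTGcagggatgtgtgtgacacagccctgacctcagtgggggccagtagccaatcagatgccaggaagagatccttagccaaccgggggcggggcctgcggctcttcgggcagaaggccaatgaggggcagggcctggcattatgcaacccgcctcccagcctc
Per3: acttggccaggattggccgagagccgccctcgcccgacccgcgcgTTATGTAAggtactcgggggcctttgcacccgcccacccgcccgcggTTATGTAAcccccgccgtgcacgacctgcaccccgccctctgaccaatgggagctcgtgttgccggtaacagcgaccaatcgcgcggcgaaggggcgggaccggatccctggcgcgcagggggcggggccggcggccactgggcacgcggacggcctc
Cry1: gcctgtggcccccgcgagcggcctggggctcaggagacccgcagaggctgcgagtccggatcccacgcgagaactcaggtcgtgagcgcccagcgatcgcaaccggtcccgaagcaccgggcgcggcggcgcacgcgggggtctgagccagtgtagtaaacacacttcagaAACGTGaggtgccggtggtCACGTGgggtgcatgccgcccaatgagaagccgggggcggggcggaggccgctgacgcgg
Dbp: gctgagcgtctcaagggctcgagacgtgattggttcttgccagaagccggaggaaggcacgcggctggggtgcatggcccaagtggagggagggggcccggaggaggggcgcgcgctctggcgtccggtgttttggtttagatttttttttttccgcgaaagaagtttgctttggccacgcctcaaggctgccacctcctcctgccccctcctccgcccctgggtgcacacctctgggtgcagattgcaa
Arntl: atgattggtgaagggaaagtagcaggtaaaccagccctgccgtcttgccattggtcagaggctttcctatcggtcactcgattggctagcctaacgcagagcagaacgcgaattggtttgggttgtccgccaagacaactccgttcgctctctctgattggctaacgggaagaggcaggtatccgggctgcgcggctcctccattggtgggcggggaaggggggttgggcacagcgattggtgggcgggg
Among the other windows, Cry2 held an E-prime box at -166 and Nr1d1 one at -28, and Clock, Nr1d2 and the second Arntl window held none. E-boxes were in 6.02% of all 32851 windows, E-prime boxes in 3.85%, D-boxes in 0.931%, the cAMP response element in 1.55% and TAGGTCA in 2.23%. No member window held the cAMP response element or TAGGTCA, which says only that these letters are not in these bases.

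Values are FPKM, by definition fragments scaled to transcript length and to the fragments mapped in the library. Levels can therefore be set against each other between genes. The table has no counts, so depth is known only relative to the median library, from 0.818 to 1.30 of it. Rpph1 and Rmrp, noncoding RNAs of the ribonucleases P and MRP, took 7.75% to 20.5% of the summed FPKM of a library, most in Control 1, P.T.ATBx 1, Control 3 and P.T.ATBx 4. The labels call the cells cancer cells, and markers of an intestinal epithelial line were low in most libraries. The 7 epithelial markers summed to 3.88 to 114 FPKM among Control libraries and 8.03 to 33.3 among P.T.ATBx libraries, with Krt18 up to 53.7 and Krt8 up to 44.8. Cdx2 was listed at 0 in all 20 libraries. So was the fibroblast marker Postn, so a 0 in every library need not mean absent RNA. The 12 leukocyte markers summed to 1082 to 1937 and 1091 to 1688 FPKM, and the 8 fibroblast markers to 1404 to 1795 and 1200 to 1422. Single genes, named after their values were seen, weigh heavily in these sums. Lyz2 averaged 1098 FPKM over all 20 libraries, and Dcn went from 672 FPKM (Control mean) to 543 (P.T.ATBx mean). Of 7 tested fibroblast markers 6 pointed down and 1, Pdgfrb, up (means 78.5 and 89.0 FPKM). Only Dcn was called (limma), so the lower fibroblast sums are not read as a trait of all 8. In bulk RNA from mixed tissue, fewer cells of a type and less RNA per cell cannot be told apart.

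Transcript levels were ordered the same way in both groups for most neighbours. Over all 20 libraries Arntl was highest (mean 18.1 FPKM), followed by Clock (15.0), Nr1d2 (14.4), Per1 (6.30), Nr1d1 (6.21), Cry1 (3.54), Cry2 (2.61), Dbp (2.45), Per3 (1.01) and Per2 (0.477). Arntl lay above Clock in 10 Control and 9 P.T.ATBx libraries, while Clock lay above Nr1d2 in 7 of 10 in each group. Cry2 and Dbp did not differ beyond their spread, with Cry2 above Dbp in 5 Control and 6 P.T.ATBx libraries. Per1 and Nr1d1 changed places: Per1 lay above Nr1d1 in 1 Control library and in 9 P.T.ATBx libraries.

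**Figure D1:**
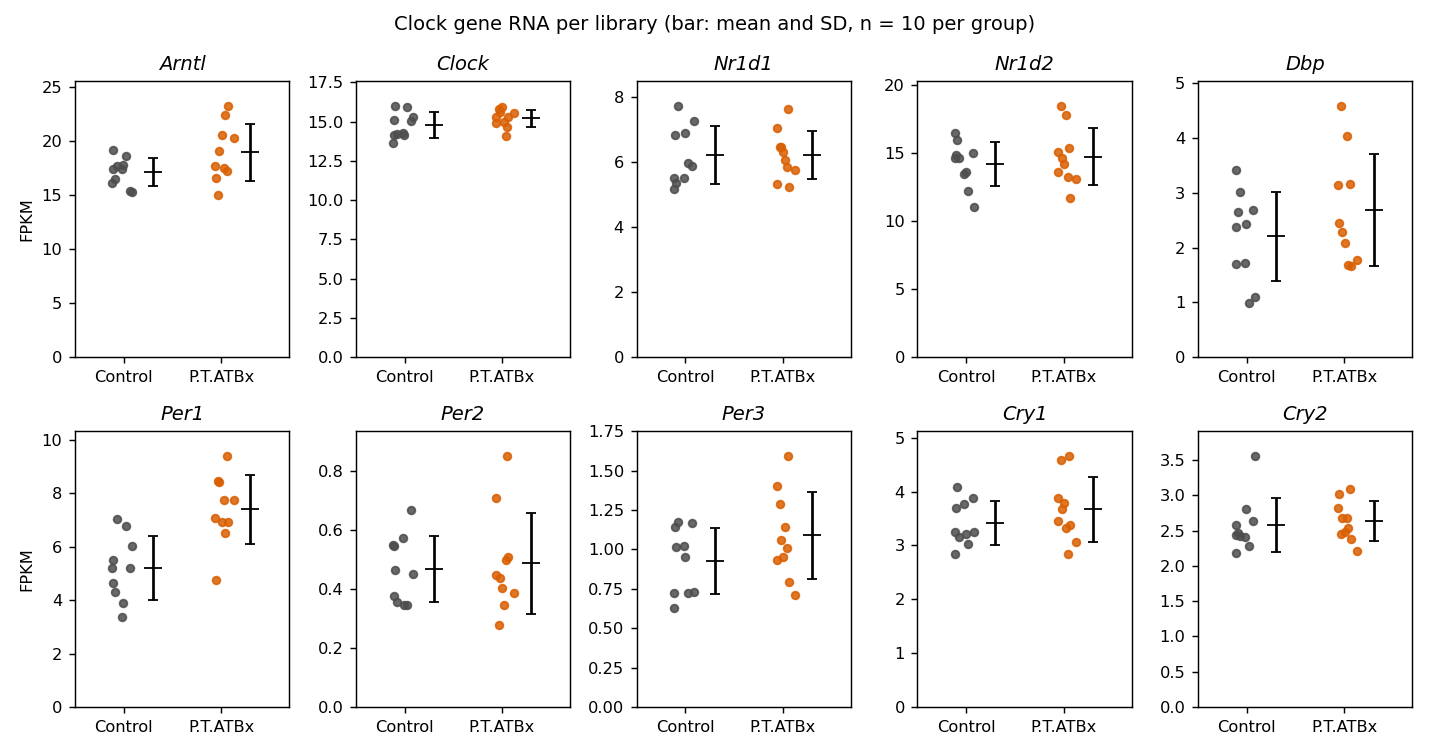
Each panel plots FPKM of 1 clock gene in the 10 Control and 10 P.T.ATBx libraries, with each point a library and the bar the mean with its SD. Per1 is the gene whose groups overlap least: 6 of 10 P.T.ATBx libraries lie above the highest Control library at 7.03 FPKM.

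The design asks which transcripts differed after peri-tumoral ATBx. In limma's moderated test on log2(FPKM + 1), 0 of the 9 clock genes with a mean of at least 0.5 FPKM passed an adjusted p of 0.05, beside 0.845% of all 12788 rows tested (108 rows; 0.461% were higher and 0.383% lower in P.T.ATBx, 59 and 49 rows). At an unadjusted p under 0.05 stood 1 of 9, Per1, against 13.6% of all rows (7.51% on the higher side), a share near the background. All 9 differences pointed up in P.T.ATBx with a median log2 difference of 0.07, in a table where 6585 rows pointed up, 6203 down and the median was 0.00. These genes were measured in the same libraries, so the 9 directions are not independent results.

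**Figure D2:**
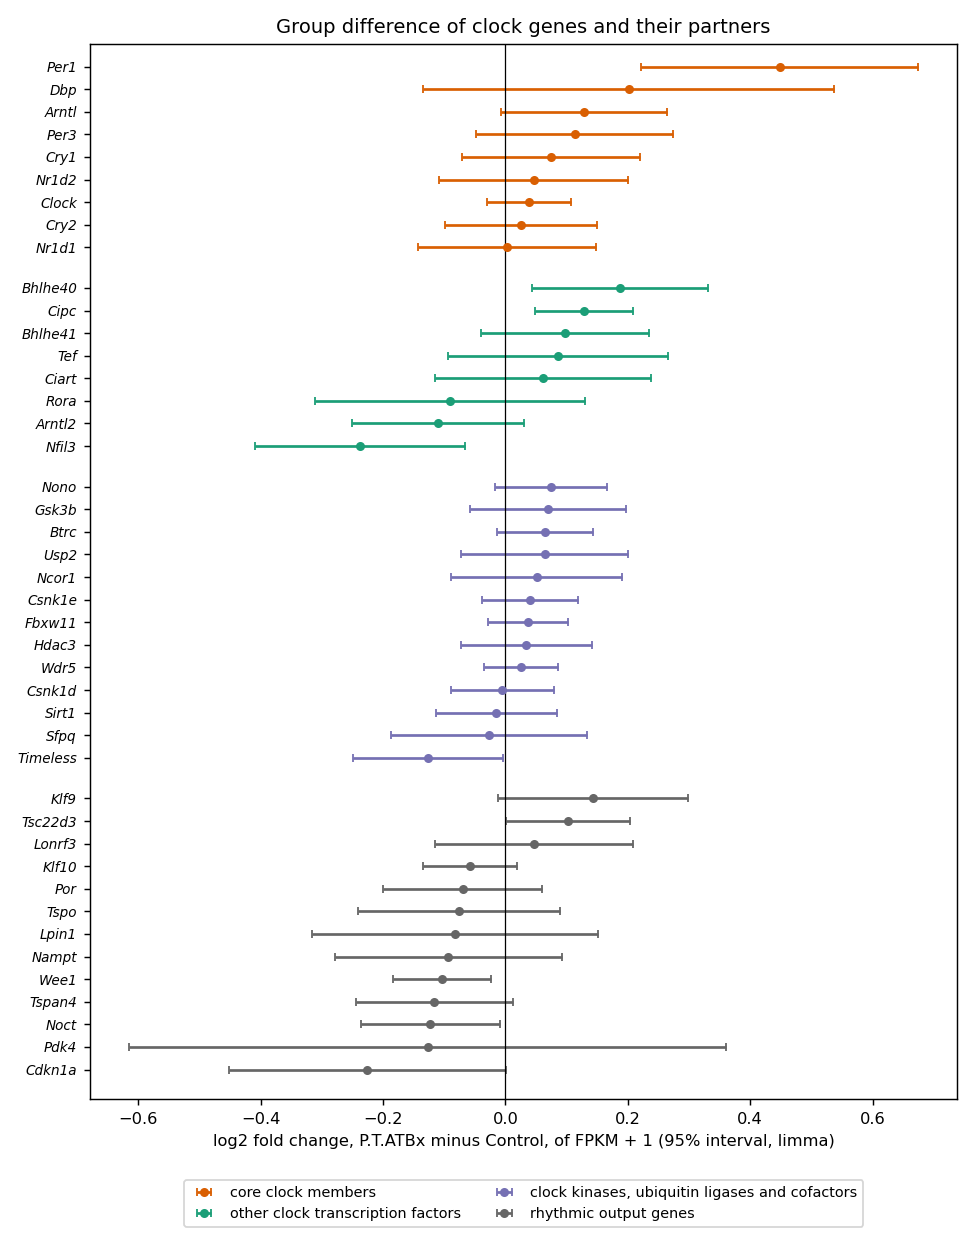
Points are the log2 fold change of FPKM + 1, P.T.ATBx minus Control, with 95% intervals from limma, for the 9 tested clock genes and the tested genes of 3 further lists (other clock transcription factors; kinases, ligases and cofactors; rhythmic outputs), coloured by list. Per1, at 0.22 to 0.67, is the only one of the 9 clock genes whose interval leaves out 0.

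Arntl and Clock, the activating pair, differed little. Arntl ranged from 15.3 to 19.2 FPKM in Control, with a median of 17.5, and from 15.0 to 23.3 in P.T.ATBx, with a median of 18.4. The groups overlapped, with 4 P.T.ATBx libraries above the highest Control library and the lowest value of all also in P.T.ATBx. The log2 difference was 0.13 (SE 0.066, 95% interval -0.01 to 0.26), with an adjusted p of 0.400 from limma. Clock was among the least variable rows of the table, with a residual SD lower than in all but 2.84% of rows tested. It ranged from 13.6 to 16.0 FPKM in Control, with a median of 14.7, and from 14.1 to 15.9 in P.T.ATBx, with a median of 15.3. Although 9 of 10 P.T.ATBx libraries exceeded the Control median, the log2 difference was only 0.04 (SE 0.033, 95% interval -0.03 to 0.11; limma adjusted p 0.659).

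Per1, a repressor of the loop that also answers outside signals, came closest to a call. It ranged from 3.36 to 7.03 FPKM in Control, with a median of 5.20, and from 4.76 to 9.41 in P.T.ATBx, with a median of 7.41. In P.T.ATBx 9 libraries exceeded the Control median and 6 the highest Control value, and 4 Control libraries lay below the lowest P.T.ATBx library, so the groups overlapped in part. Mean FPKM was 5.20 ± 1.20 (SD, n = 10) in Control and 7.40 ± 1.28 (SD, n = 10) in P.T.ATBx, a ratio of means of 1.43. The log2 difference was 0.45 (SE 0.11, 95% interval 0.22 to 0.67), with an unadjusted p of 0.000471 and an adjusted p of 0.0524 from limma, just above the threshold, at rank 115 of 12788 rows by p. The call changed with the setting: it was made in 9 of 35 alternatives, and the limma adjusted p was lowest, 0.0138, on leaving out P.T.ATBx 10 and highest, 0.151, on leaving out the 4 libraries highest in Rpph1 and Rmrp. It was made on leaving out Control 2, Control 3, Control 4 or P.T.ATBx 10, with limma adjusted p 0.0223, 0.0491, 0.0400 and 0.0138. With the mean log2 keratinocyte marker score as a covariate the log2 difference was 0.49 (limma adjusted p 0.0278); the 8 keratinocyte markers summed to 2.65 to 10.4 FPKM in Control and 2.52 to 11.8 in P.T.ATBx, 4 were tested and 0 called. Per1 was therefore not called changed, and its log2 difference was between 0.39 and 0.52 in all 35.

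The other period genes did not stand out. Per3 ranged from 0.631 to 1.17 FPKM in Control and from 0.712 to 1.59 in P.T.ATBx, with 6 of 10 P.T.ATBx libraries above the Control median, and the log2 difference was 0.11 (SE 0.078; limma adjusted p 0.572). Per2, whose mean of 0.477 FPKM was below the filter, ranged from 0.346 to 0.667 FPKM in Control, with a median of 0.457, and from 0.276 to 0.851 in P.T.ATBx, with a median of 0.442. The groups overlapped almost fully, and a 2-sided permutation test of log2(FPKM + 1) with 100000 resamples gave p = 0.826 for a difference of 0.01.

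Cry1 and Cry2, the cryptochromes that complete the repressing complex, also overlapped between groups. Cry1 ran from 2.85 to 4.09 FPKM in Control, with a median of 3.26, and from 2.84 to 4.66 in P.T.ATBx, with a median of 3.56. Cry1 lay above the Control median in 8 of 10 P.T.ATBx libraries, at a log2 difference of 0.07 (SE 0.070, 95% interval -0.07 to 0.22; limma adjusted p 0.692). Cry2 ran from 2.18 to 3.56 FPKM in Control, with a median of 2.45, and from 2.22 to 3.09 in P.T.ATBx, with a median of 2.60. The highest Control value, in Control 3, stood apart from the other 9, and the log2 difference was 0.03 (SE 0.060; limma adjusted p 0.893) with it and 0.06 without it.

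The REV-ERB genes and Dbp held the smallest difference (Nr1d1) and the widest interval (Dbp) of the loop. Nr1d1 ran from 5.16 to 7.71 FPKM in Control, with a median of 5.92, and from 5.24 to 7.61 in P.T.ATBx, with a median of 6.17; the log2 difference was 0.00 (SE 0.070, 95% interval -0.14 to 0.15; limma adjusted p 0.991). The group ranges of Nr1d1 were nearly the same. Nr1d1 shares 263 exon bases, 9.67% of its own, with Thra, a thyroid hormone receptor gene on the opposite strand, and how strand was counted is not given in the sources used here. Thra had a mean of 14.5 ± 0.620 (SD, n = 10) FPKM for Control and 14.4 ± 0.861 (SD, n = 10) for P.T.ATBx. Nr1d2 ran from 11.1 to 16.5 FPKM in Control, with a median of 14.6, and from 11.7 to 18.4 in P.T.ATBx, with a median of 14.4, for a log2 difference of 0.05 (SE 0.074; limma adjusted p 0.833). The Control median of Nr1d2 was exceeded in 4 P.T.ATBx libraries. Dbp, which encodes a D-box activator, varied most: it ran from 0.981 to 3.42 FPKM in Control, with a median of 2.40, and from 1.67 to 4.58 in P.T.ATBx, with a median of 2.37. The medians were close and the log2 difference of 0.20 (SE 0.16, 95% interval -0.13 to 0.54; limma adjusted p 0.636) fell to 0.00 without the 4 libraries highest in Rpph1 and Rmrp, of which P.T.ATBx 1 and 4 hold the highest Dbp values. The residual SD of Dbp on the log2 scale, 0.385, was higher than in 95.4% of rows tested, that of Per1 higher than in 89.0%, and Dbp shares 539 exon bases (29.3%) with Sphk2 on the opposite strand (a neighbour named after its overlap was seen).

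Because the loop places its members at opposite phases, the 45 pairs of clock genes were correlated across libraries within each group, 90 relations in all. After Benjamini-Hochberg adjustment 2 were past 0.05 by Pearson's r and 2 by Spearman's rho, both in P.T.ATBx, and 13 had an unadjusted p under 0.05. Pairs were positive in 21 of 45 in Control (median r -0.04) and 30 of 45 in P.T.ATBx (median r 0.25). In 16 pairs r was positive in both groups and in 10 negative in both, and whether any r differed between the groups was not tested.

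Dbp and Nr1d2, both direct targets of the BMAL1 and CLOCK pair, rose and fell together in P.T.ATBx. Across its 10 libraries Pearson's r was 0.893 (permutation p = 0.00049, adjusted p 0.0441) and Spearman's rho 0.915 (permutation p = 0.00052, adjusted p 0.0396). The r was 0.690 without the 2 libraries farthest from the median of Nr1d2. In Control r was 0.778 (permutation p = 0.00821, adjusted p 0.148) and rho 0.576 (permutation p = 0.0880, adjusted p 0.401). There r fell to 0.328 without the 2 farthest libraries together, and was 0.683 to 0.824 on leaving out 1 library in turn. In P.T.ATBx the libraries highest in both were 1 and 4, at 18.4 and 17.8 FPKM for Nr1d2 and 4.58 and 4.04 for Dbp; these libraries are also among the 4 highest in Rpph1 and Rmrp, at 17.2% and 14.8% of summed FPKM. P.T.ATBx 1 and 4 are also the 2 farthest from the median of Nr1d2. Leaving out those 4 libraries is therefore the same calculation in this group, with r again 0.690 (exact permutation, adjusted p 0.228). The call was also lost on leaving out P.T.ATBx 1, 2, 3, 4, 5, 6, 8 or 9 in turn, with r between 0.834 and 0.960 and a permutation adjusted p of up to 0.186 over the 10 left-out libraries. The part that library composition plays in this relation was not tested.

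Arntl ran opposite to Dbp in P.T.ATBx. Pearson's r was -0.880 (permutation p = 0.00101, adjusted p 0.0454) and Spearman's rho -0.903 (permutation p = 0.00088, adjusted p 0.0396), and r was -0.825 without the 2 libraries farthest from the median of Arntl. The highest Arntl value, 23.3 FPKM in P.T.ATBx 5, came with the lowest Dbp value of its group, 1.67, and the lowest Arntl value, 15.0 FPKM in P.T.ATBx 1, with the highest Dbp value, 4.58. In Control r was -0.12 (permutation p = 0.737, adjusted p 0.886) and rho -0.14 (permutation p = 0.706, adjusted p 0.886), and r was -0.53 without the 2 farthest libraries. Control also had r -0.543 without the 4 libraries highest in Rpph1 and Rmrp. Without the 4 libraries above, r in P.T.ATBx was -0.870 (exact permutation, adjusted p 0.148), nearly as large but no longer past the adjusted threshold at this number of libraries. The call was also lost on leaving out P.T.ATBx 1, 2, 3, 5, 6, 8 or 9 in turn, with r between -0.945 and -0.820 and a permutation adjusted p of up to 0.191 over the 10 left-out libraries. Arntl and Nr1d2 in P.T.ATBx gave r -0.840 (permutation p = 0.00237, adjusted p 0.0711) and rho -0.867 (permutation p = 0.00226, adjusted p 0.0646), short of the threshold; r was -0.742 without the 2 farthest. In Control that pair had r -0.01 (permutation p = 0.979, adjusted p 0.987) and rho -0.21 (permutation p = 0.559, adjusted p 0.813), and r was -0.682 without the 2 farthest.

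**Figure D3:**
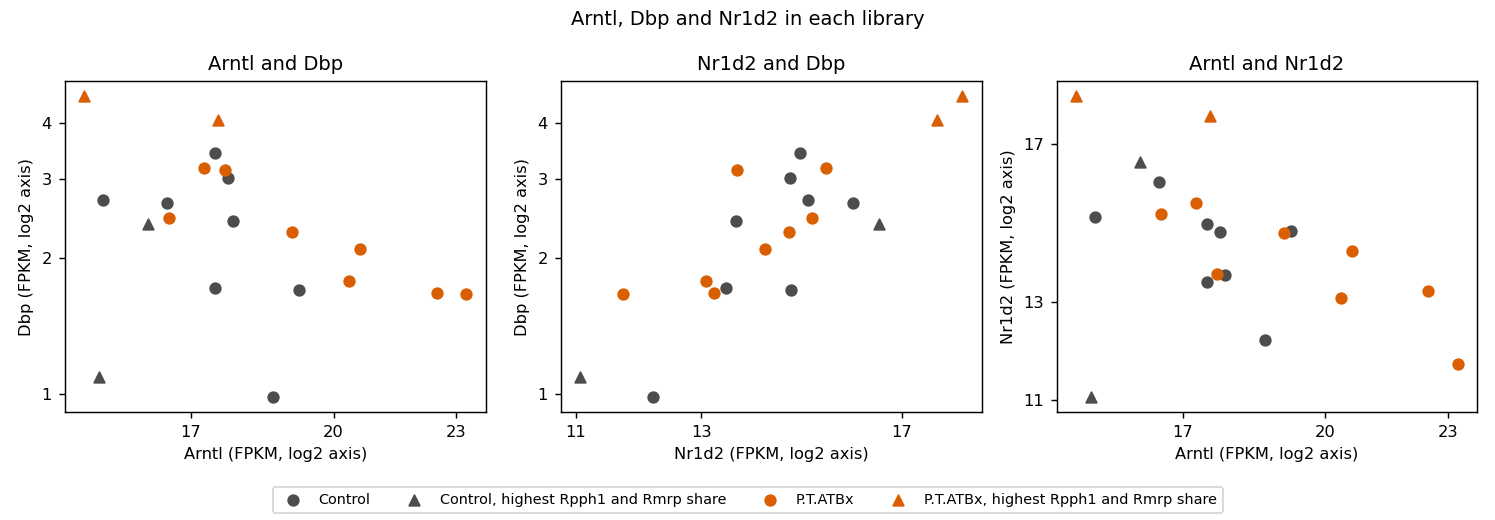
FPKM of Arntl, Dbp and Nr1d2 is plotted pair by pair on log2 axes, 1 point per library in the colour of its group, with triangles for the 4 libraries highest in Rpph1 and Rmrp. In P.T.ATBx Dbp falls with Arntl (r -0.880) and rises with Nr1d2 (r 0.893); in Control the r are -0.12 and 0.778.

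**Figure D4:**
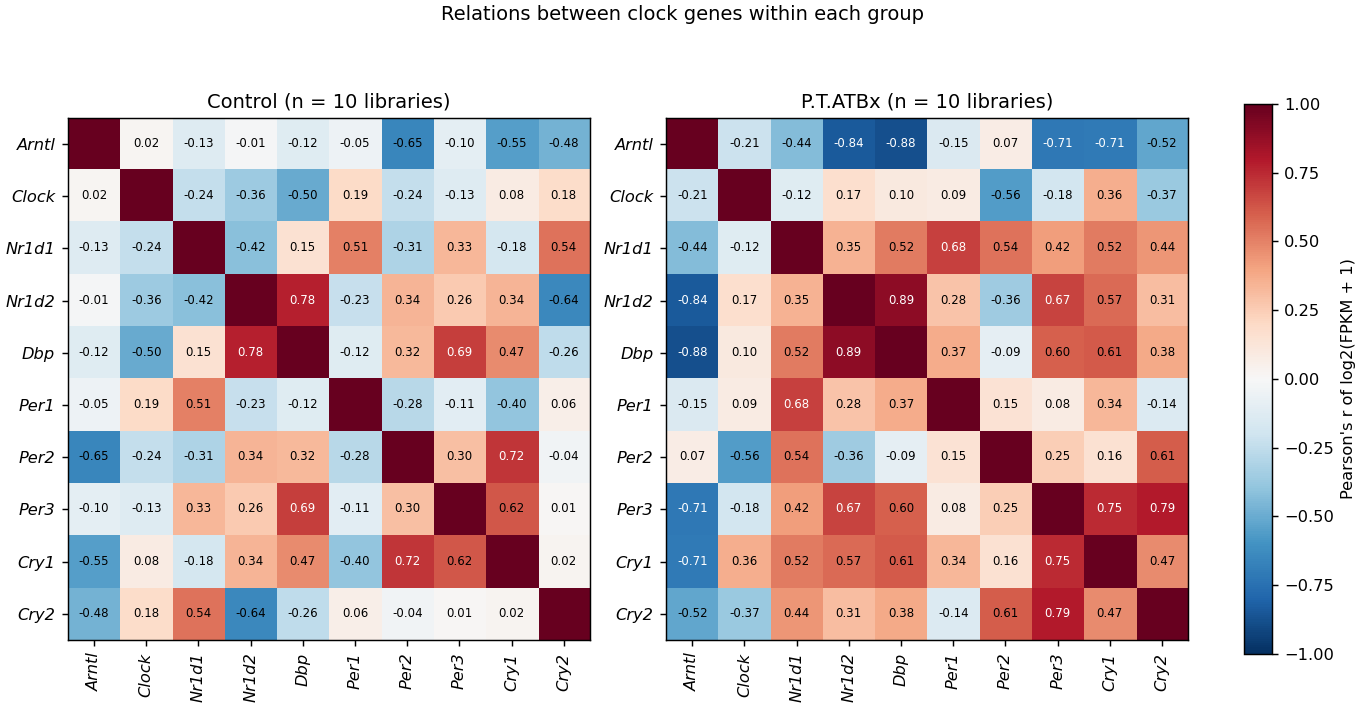
Pearson's r of log2(FPKM + 1) is shown for all 45 pairs of clock genes, 1 panel for each group of 10 libraries, from blue (negative) to red (positive). Arntl has negative r with 8 of the 9 other genes in Control and with 8 in P.T.ATBx, where it reaches -0.880 with Dbp.

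The other clock relations stayed under the adjusted threshold. Arntl with Nr1d1 had r -0.436 in P.T.ATBx (permutation adjusted p 0.566), which was -0.111 without the 2 farthest libraries, and -0.128 in Control (permutation adjusted p 0.886). Nr1d1 with Nr1d2 had r 0.351 in P.T.ATBx (permutation adjusted p 0.664) and -0.422 in Control (permutation adjusted p 0.590). Nr1d1 with Dbp had r 0.521 in P.T.ATBx (permutation adjusted p 0.424) and 0.153 in Control (permutation adjusted p 0.886). Per3 with Cry2 had r 0.792 in P.T.ATBx (permutation adjusted p 0.148) and 0.00786 in Control (permutation adjusted p 0.987). Per3 with Cry1 had r 0.749 in P.T.ATBx (permutation adjusted p 0.187) and 0.621 in Control (permutation adjusted p 0.333). Per2 with Cry1 had r 0.718 in Control (permutation adjusted p 0.235) and 0.155 in P.T.ATBx (permutation adjusted p 0.886). Marker levels of other cell types moved with some of these genes, and their part in the relations was not tested. The mean log2 level of the 7 tested fibroblast markers correlated with Nr1d2 in Control at r -0.777 (permutation p = 0.00977, adjusted p 0.0603) and rho -0.576 (permutation p = 0.0883, adjusted p 0.386), and r was -0.25 without the 2 farthest libraries. In P.T.ATBx it correlated with Nr1d2 at r -0.491 (permutation p = 0.150, adjusted p 0.268; 0.423 without the 2 farthest). With Dbp r was -0.460 in Control (permutation p = 0.184, adjusted p 0.294; 0.493 without the 2 farthest) and -0.578 in P.T.ATBx (permutation p = 0.0832, adjusted p 0.190; 0.0908 without the 2 farthest), so each of the 4 fibroblast relations shrank or turned without 2 libraries. Over 20 group-centred libraries, as a description, Arntl had r -0.51 with the Rpph1 and Rmrp share and -0.55 with the keratinocyte markers. Per2 had r 0.595 with the keratinocyte markers. The fibroblast markers had r 0.614 with Cry2, -0.628 with Nr1d2 and -0.513 with Dbp, so signs differed between clock genes. Of the 7 fibroblast markers 1, Dcn (named after its value was seen), was called, lower in P.T.ATBx, and the other fibroblast marker, Postn, was listed at 0 in all libraries. Nr1d1 with Thra had r 0.873 in Control (permutation p = 0.00268, adjusted p 0.0429; rho 0.733, adjusted p 0.165) and 0.371 in P.T.ATBx (adjusted p 0.418). These were chosen after the values were seen and adjusted over 16 added relations.

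The genes around the loop were compared in lists made for this report. Of 12 other clock transcription factors 8 were tested and 0 were called higher or lower (limma, 3 with unadjusted p under 0.05), with 5 differences up and 3 down and a median of 0.07. Among them Nfil3, a repressor at D-boxes, stood at 9.68 ± 1.81 (SD, n = 10) FPKM in Control against 7.99 ± 0.902 in P.T.ATBx (log2 difference -0.24, limma adjusted p 0.184), and only 1 P.T.ATBx library was above the Control median. Bhlhe40, a repressor at E-boxes, stood at 30.9 ± 3.30 and 35.4 ± 4.20 FPKM (log2 difference 0.19, limma adjusted p 0.216). Cipc, a CLOCK-interacting repressor, had a log2 difference of 0.13 (limma adjusted p 0.119) and the Arntl paralog Arntl2 one of -0.11 (limma adjusted p 0.509). Rora, which activates Arntl, and Tef and Ciart had log2 differences of -0.09, 0.09 and 0.06 (limma adjusted p 0.764, 0.713 and 0.803). Npas2, a Clock paralog, and Hlf, a Dbp paralog, were under the filter at a mean of 0.306 and 0.206 FPKM in Control.

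Of 14 kinases, ubiquitin ligases and cofactors that act on clock proteins, 13 were tested and 0 were called (limma, 1 with unadjusted p under 0.05), 9 up and 4 down with a median of 0.04. Timeless, a replication fork protein, had the smallest p of them at a log2 difference of -0.13 (limma adjusted p 0.349), followed by Btrc, a ligase for PER (0.06, limma adjusted p 0.481), Nono, a PER cofactor (0.07, limma adjusted p 0.486), and Fbxw11, a paralog of Btrc (0.04, limma adjusted p 0.663). All 13 rhythmic output genes were tested and 0 were called (limma, 3 with unadjusted p under 0.05), with 3 up and 10 down and a median of -0.08. Wee1, a cell cycle kinase, had a log2 difference of -0.10 (limma adjusted p 0.221), Noct (nocturnin), a clock-controlled phosphatase, -0.12 (limma adjusted p 0.322), Tsc22d3, a glucocorticoid-induced gene, 0.10 (limma adjusted p 0.365) and Cdkn1a, a cell cycle inhibitor, -0.23 (limma adjusted p 0.368).

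Since Per1 is also a target of glucocorticoid and of cAMP and growth factor signals, 2 lists of genes with those inputs were compared, each of which includes Per1. Of 8 glucocorticoid-responsive genes 7 were tested, and 1 was called higher and 0 lower, beside 0.461% and 0.383% of all rows. At an unadjusted p under 0.05 stood 4 of the 7, among them Per1, against 13.6% of all rows; the members were chosen with results known, and nothing particular to the list is read from these counts. Sgk1, a kinase induced by glucocorticoid and by serum, rose from 85.5 ± 3.62 (SD, n = 10) to 101 ± 5.86 FPKM (log2 difference 0.24, SE 0.036, limma adjusted p 0.00118). The Control median of Sgk1 was exceeded in all 10 treated libraries. Fkbp5, a receptor co-chaperone that glucocorticoid induces strongly, stood at 28.9 ± 2.50 and 28.6 ± 3.03 FPKM (log2 difference -0.01, limma adjusted p 0.948). The list had 6 up and 1 down and a median of 0.14.

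Of 11 immediate early genes, transcripts made within minutes of a stimulus, all were tested and 2 were called higher and 0 lower, beside 0.461% and 0.383% of all rows, with 8 up, 3 down and a median of 0.19. At an unadjusted p under 0.05 stood 6 of the 11, among them Per1, against 13.6% of all rows. This list too was chosen with results known, and nothing particular to it is read from these counts. Fosb, a member of the AP-1 family, rose from 0.522 ± 0.213 (SD, n = 10) to 1.50 ± 0.727 FPKM, a ratio of means of 2.88. Its log2 difference of FPKM + 1 was 0.68 (SE 0.13, limma adjusted p 0.0108), and adding 1 shrinks this difference at such low FPKM. Each treated library exceeded the Control median of Fosb. Egr1, a serum-induced transcription factor, rose from 2.92 ± 0.444 to 4.01 ± 0.673 FPKM (log2 difference 0.35, SE 0.080, limma adjusted p 0.0325). Fos, from the same family as Fosb, stood at 6.88 ± 2.10 and 12.5 ± 5.18 FPKM (log2 difference 0.73, limma adjusted p 0.0917), and Dusp1, a phosphatase chosen after its values were seen, at 9.75 ± 1.18 and 12.2 ± 1.82 (log2 difference 0.29, limma adjusted p 0.0624). Fos was 6.54 to 8.56 FPKM in P.T.ATBx 1 to 4, within the Control range, and 12.0 to 21.7 in P.T.ATBx 5 to 10. Egr1 was 3.17 to 3.69 in P.T.ATBx 1 to 5 and 4.09 to 5.08 in P.T.ATBx 6 to 10. What this order by library number reflects was not tested. The TPM scale divides each value by the summed FPKM of its library, Rpph1 and Rmrp included. On that scale Sgk1 and Egr1 were no longer called (limma adjusted p 0.0650 and 0.134). Egr1 was also lost without Control 4 or P.T.ATBx 6, 7, 8, 9 or 10 in turn (limma adjusted p 0.0520 to 0.0597).

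**Figure D5:**
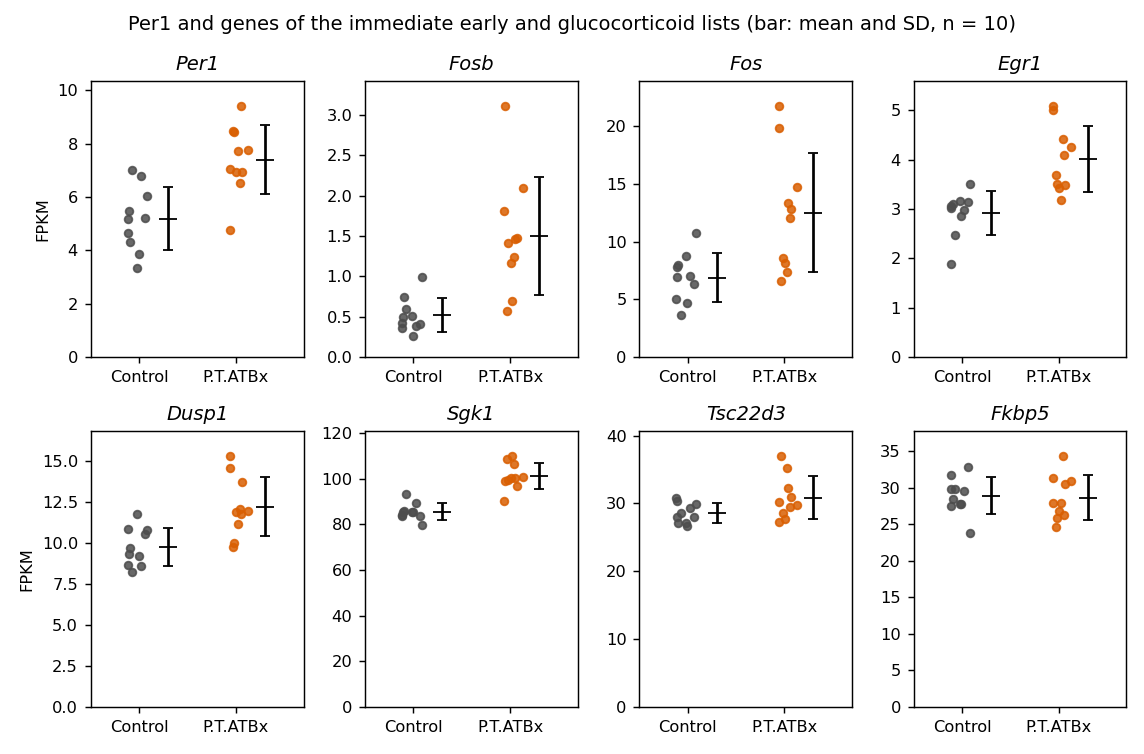
FPKM of Per1, of genes of the immediate early list (Fos, Fosb, Egr1, Dusp1) and of the glucocorticoid list (Sgk1, Tsc22d3, Fkbp5) is plotted for each library, with the bar the mean and its SD in each group of 10. Sgk1, Fosb and Egr1 are called higher in P.T.ATBx, Per1 and Fos are not, and Fkbp5 overlaps almost fully between groups.

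The relation of Per1 to these genes within groups was computed after their values were seen, and its sign varied. In P.T.ATBx Per1 with Dusp1 had r -0.742 (permutation p = 0.0113, adjusted p 0.0603) and rho -0.745 (permutation p = 0.0176, adjusted p 0.165), and r was -0.767 without the 2 farthest libraries. Per1 with Fos had r -0.607 (permutation p = 0.0563, adjusted p 0.190) and rho -0.503 (permutation p = 0.144, adjusted p 0.460), and r was -0.551 without the 2 farthest. In Control Per1 with Dusp1 had r -0.592 (permutation p = 0.0730, adjusted p 0.190), which was -0.14 without the 2 farthest, and with Fos r -0.230 (permutation p = 0.523, adjusted p 0.586), which was 0.422 without them. With Fosb the r of Per1 was 0.235 in Control (permutation p = 0.519) and -0.602 in P.T.ATBx (permutation p = 0.0712), and with Egr1 -0.172 (permutation p = 0.647) and -0.490 (permutation p = 0.151), with adjusted p of 0.586, 0.190, 0.647 and 0.268. With Sgk1 the r of Per1 was 0.336 among Controls and 0.215 among P.T.ATBx libraries (permutation p = 0.349 and 0.549, adjusted p 0.465 and 0.586). None of the Per1 relations passed adjustment over the 16. Whether the order of Fos and Egr1 by library number in P.T.ATBx bears on them was not tested.

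Outside these lists, the transcripts most like 5 of the clock genes were taken from 12114 tested rows by Pearson's r of group-centred log2(FPKM + 1) over 20 libraries, as a description with no test. As the extremes of so many rows, these r can be large without any relation, and none is read from them. Arntl ran most closely with Pcolce, a collagen-processing cofactor (r 0.81), Plcd1 (0.79) and Pla2r1 (0.75), and against Mrpl39 (-0.80), Cbr1 (-0.73) and Thap1 (-0.72). Dbp ran with Tmem47 (0.83), Mblac2 (0.81) and Sgcb, a sarcoglycan (0.80), and against Mcm5, a subunit of the DNA replication helicase (-0.79), Il17ra (-0.78) and Rnpep (-0.77). The likeness of the other genes was of similar size. Nr1d1 had Dbn1 (0.72), Rpusd2 (0.72) and Mob3b (0.69) at the top and Plekhf2 (-0.81), Ptpn7 (-0.80) and Rps6ka5 (-0.78) at the bottom. Per1 had Habp4 (0.70), Rab3a (0.70) and Mir719 (0.69) at the top and Klk1b27 (-0.68), Fbxl14 (-0.66) and Zfp418 (-0.66) at the bottom, the weakest of the 5. Cry1 had Fam161a (0.72), Tef (0.71), the D-box activator, and AW209491 (0.70) at the top and Tbc1d17 (-0.80), Phc2 (-0.71) and Dok1 (-0.70) at the bottom.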

How the data were processed

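RNA was profiled from 20 tumour libraries in 2 groups of 10, taken from the titles. The authors deposited 1 table of FPKM, built on mm10 per the submitters' processing notes, with a stranded total RNA kit per the labels; the sources used here do not give the aligner or the counting. From it, log2(FPKM + 1) was computed. Adding 1 shrinks log2 differences at low FPKM, so those of genes at unlike levels are not on one fold scale. Rows with a mean of at least 0.5 FPKM (12788 of 23402) were tested with limma 3.58.1 in R 4.3.3 (trend and robust, 2-sided, Benjamini-Hochberg, threshold 0.05). Pair correlations used 100000 permutations (exact at 8 or 9 libraries). Promoter windows came from the RefSeq tables and overlaps from GENCODE M21 on GRCm38. The limma script was tested on simulated data. The members and lists were chosen with earlier results of these data known. An item of 1 list is not reported here. The genes named were all members, called genes of each list or otherwise its 4 with smallest p, a fixed set (Npas2, Rora, Bhlhe40, Nfil3, Tef, Hlf, Ciart, Fkbp5, Tsc22d3, Fos, Thra) and the 3 rows most like and least like 5 members. Alternatives covered pseudocount, filter, quantile and TPM scaling, covariates, left-out libraries and a replicate block. By definition FPKM divides by the library's mapped fragments, but any further scaling between libraries is not given in the sources used here. Median-of-ratios scaling gave the same counts, 59 rows higher and 49 lower. The upper quartile of FPKM was 13.4 to 14.1 over the 20 libraries.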

Additional observations from a re-analysis of the deposited data

Results flagged for a closer look

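Cry2 in Control 3, at 3.56 FPKM, lay far above the other 9 Control libraries: its gap to the nearest of them was 0.550 of the group's whole range, over Dixon's 95% critical value for 10 samples. Of 20 groups examined (10 genes in 2 groups) chance alone flags about 1, so a single such sample is near what chance gives. Control 3 is also 1 of the 4 libraries highest in Rpph1 and Rmrp, at 15.0% of summed FPKM, and whether the 2 are linked was not tested.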

How the results depend on the processing

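The number of rows called higher and lower was 59 and 49, and 54.6% of calls were higher. It was 20 and 29 on the TPM scale, where 40.8% were higher, 154 and 152 with array weights, 115 and 106 with Ptprc as a covariate and 110 and 98 with the Rpph1 and Rmrp share as one. Without the 4 libraries highest in that share 31 rows were higher. Leaving out 1 library gave 38 to 104 higher and 31 to 89 lower, with P.T.ATBx 4 the lowest, Control 1 the highest and 78 lower without Control 2. The count of called clock genes was 0, and 0 to 1 on leaving out a library. It was 1 (Per1) with quantile normalization (log2 difference 0.45), array weights (0.44), and the keratinocyte score (0.49), Ptprc (0.44) or the Rpph1 and Rmrp share (0.45) as covariate, with limma adjusted p of 0.0442, 0.0429, 0.0278, 0.0438 and 0.0461. Per1 ran from 0.39 to 0.51 on leaving out a library, called without Control 2, 3, 4 or P.T.ATBx 10. The other 8 tested members kept no call in all 35 alternatives. Nr1d1, near 0, turned to -0.000968 with the muscle score and -0.00875 with Ptprc, and ran from -0.0262 to 0.0346 on leaving out a library; Nr1d2 turned to -0.0411 without the 4 libraries.

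Pairs past the adjusted threshold numbered 2, 1 with quantile normalization, 1 on the TPM scale and 0 without the 4 libraries, an alternative chosen after seeing the data. Leaving out a library gave 0 to 4: 0 without P.T.ATBx 1, 2, 3, 5, 6, 8 or 9, and 4 without P.T.ATBx 7. Arntl and Dbp in P.T.ATBx had r -0.838 with quantile normalization, -0.870 without the 4 libraries and -0.945 to -0.820 on leaving out a library. In Control r was 0.219 on the TPM scale, -0.543 without the 4 libraries and -0.525 to 0.144 on leaving out a library. Nr1d2 and Dbp in P.T.ATBx had r 0.738 on the TPM scale, 0.690 without the 4 libraries and 0.834 to 0.960 on leaving out a library. In Control their r was 0.683 to 0.824 on leaving out a library and 0.762 to 0.839 over the other 4 alternatives. For the losses on leaving libraries out, fewer samples are part of the construction; for the others the cause was not tested.

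Control and P.T.ATBx share replicate numbers, and the labels do not say what a number stands for. Same-numbered libraries correlated at -0.31 to 0.39, 5 of 10 above 0.1, and 3 of 10 Controls matched their own number best. Whether same-numbered libraries share a processing step was not tested. With the number as a replicate block 65 rows were higher and 59 lower, and Per1 stood at 0.45 (limma adjusted p 0.0619); no clock gene's call changed. Low FPKM limits Per2 and Per3, and the missing counts give no interval for counting error.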

Other observations

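The balance between related clock genes was read as ratios of FPKM within each library, with no test. Per1 over Per2 ran from 5.85 to 19.7 in Control, with a median of 10.6, and from 9.98 to 30.7 in P.T.ATBx, with a median of 15.4. Arntl over Clock ran from 1.00 to 1.27 in Control and 0.952 to 1.60 in P.T.ATBx, with a median of 1.20 in both. Dbp over Arntl ran from 0.0526 to 0.196 and from 0.0717 to 0.304, a wider relative range than that of Arntl over Clock. The SD of Dbp alone was 36.6% of its mean in Control and 37.8% in P.T.ATBx, and that of Clock 5.47% and 3.69%. What the ratios hold beyond the spread of Dbp itself was not tested.

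Markers of neighbouring tissue varied widely between libraries without a called group difference (limma): the 9 skeletal muscle markers summed to 0.993 to 87.8 FPKM in Control and 1.89 to 52.9 in P.T.ATBx, with 8 of 8 tested differences up. The 8 adipocyte markers summed to 63.8 to 2959 and 94.3 to 758, with 8 of 8 down. The 8 endothelial markers summed to 91.4 to 128 and 103 to 125.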
